A study of Mus musculus with 3 samples.

Results

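Transcript levels of 10 genes of the receptor feedback pathway of olfactory sensory neurons were examined: the stress sensors Eif2ak3 (encoding PERK), Ern1 (encoding IRE1 alpha) and Atf6, the transcription factors Atf4, Atf5, Ddit3 (encoding CHOP) and Xbp1, the endoplasmic reticulum (ER) proteins Hspa5 (encoding BiP) and Creld2, and the histone demethylase Kdm1a (also called Lsd1). They were chosen by their known role, with earlier results of these data known, and each of the 10 had a row among the 34617 gene rows of the authors' table. The mOSN library was made from sorted main olfactory epithelium cells carrying EGFP expressed through OMP-ires-EGFP, in strain C57BL/6J at 4 weeks of age. The O/Tet3 library was made from sorted cells of OMP-tTA / tetO-Tet3-GFP mice of strain Fvb, also 4 weeks old, in which the Omp driver switches on Tet3, an enzyme that oxidises 5-methylcytosine. Neither the gate of the O/Tet3 sort nor the number of animals per library is stated in the labels. Both libraries hold ribosomal RNA-depleted total RNA, and the series' immunoprecipitated DNA sample is not analysed here.

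A newly chosen odorant receptor is folded in the ER, and there it activates PERK. PERK phosphorylates the translation initiation factor eIF2, which lowers general translation and lets the messenger RNA of Atf5 be translated in olfactory neurons, as it does that of Atf4 in most cells. Atf5 leads to expression of the adenylyl cyclase Adcy3, and the demethylase Lsd1, needed to open a receptor gene, is then shut down so that the choice becomes stable. IRE1 alpha and ATF6 head the other arms of the unfolded protein response: IRE1 alpha splices the messenger RNA of Xbp1, and cleaved ATF6 enters the nucleus, and both arms raise ER chaperones. Much of this signalling acts through phosphorylation, translation, splicing and cleavage, which gene-level transcript values do not measure.

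Each group had 1 library, so no difference has a replicate check, an error or a p-value, and genotype, strain and library preparation cannot be told apart. The deposited numbers are log2(value + 1), the values below are on the linear scale, and a log2 ratio is the O/Tet3 number minus the mOSN number as deposited. Rows that reached 1 in mOSN or in O/Tet3 were compared, and a row is called higher or lower in O/Tet3 where value + 1 differed by 2-fold or more. The values appear divided by gene length, so that 1 read gives a smaller value in a longer gene. Of 4086 low rows, 176 lay in the window of O/Tet3 over mOSN values that held the most rows, near 1.88-fold. Odorant receptor genes and pseudogenes among these were taken as unspliced, without a check. Their lowest value times length in kilobases was nearly constant. In mOSN it was 0.0249, 0.0233 and 0.0229 for genes from 500 to 1000, to 2000 and to 4000 bases (6, 12 and 6 rows). If the lowest of these rows hold 1 read, 1 read of a transcript of 1 kilobase lies near 0.0249 in mOSN and 0.0471 in O/Tet3. The lowest value among the 10 genes was 78.7 and 42.8 times as large. The O/Tet3 figure follows from the window chosen, so the 1.88-fold between the libraries is an estimate. Total read counts are not in the file. Tet3 went from 3.72 in mOSN to 145 in O/Tet3, the direction the labels give. All 12 markers of mature olfactory neurons were present in both libraries, at 34.4 to 1518 in mOSN and 9.63 to 285 in O/Tet3. Of them, 11 were lower in O/Tet3, or 91.7% beside 12% of all compared rows. In bulk samples, fewer cells of a type and less RNA per cell cannot be told apart.

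Atf5 was the only one of the 10 genes counted as lower in O/Tet3, and Xbp1 and Creld2 were counted as higher. The other 7 were within 2-fold of value + 1. The background among 12943 compared rows was 16.5% higher and 12% lower, so 2 higher and 1 lower of 10 lie near it, and the number of genes called says nothing particular about the pathway. The median log2 ratio of the 10 genes was 0.35, beside 0.21 over all compared rows. Of the 10 ratios, 9 were above 0, as were 7826 of the 12943 compared rows. Those shifts depend on scaling: the median of the 10 became 0.14 when centred on the rows that reached 1 in mOSN as well as O/Tet3 (11.3% of rows higher and 15.1% lower) and −0.080 when values were scaled to their sum without the 6 dominant rows (8.59% higher and 17.6% lower). Scaling to the upper quartile left 11.7% of rows higher and 14.6% lower. The calls for Atf5, Xbp1 and Creld2 held under all 9 alternatives of pseudocount, floor, fold and scaling, but most of these could not undo them. The other floors, the 1.5-fold bound and smaller pseudocounts keep or widen such differences. Every scaling lowered O/Tet3 against mOSN, so the scalings could undo only the calls of Xbp1 and Creld2. The 3-fold bound could undo any of the calls.

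**Figure D1:**
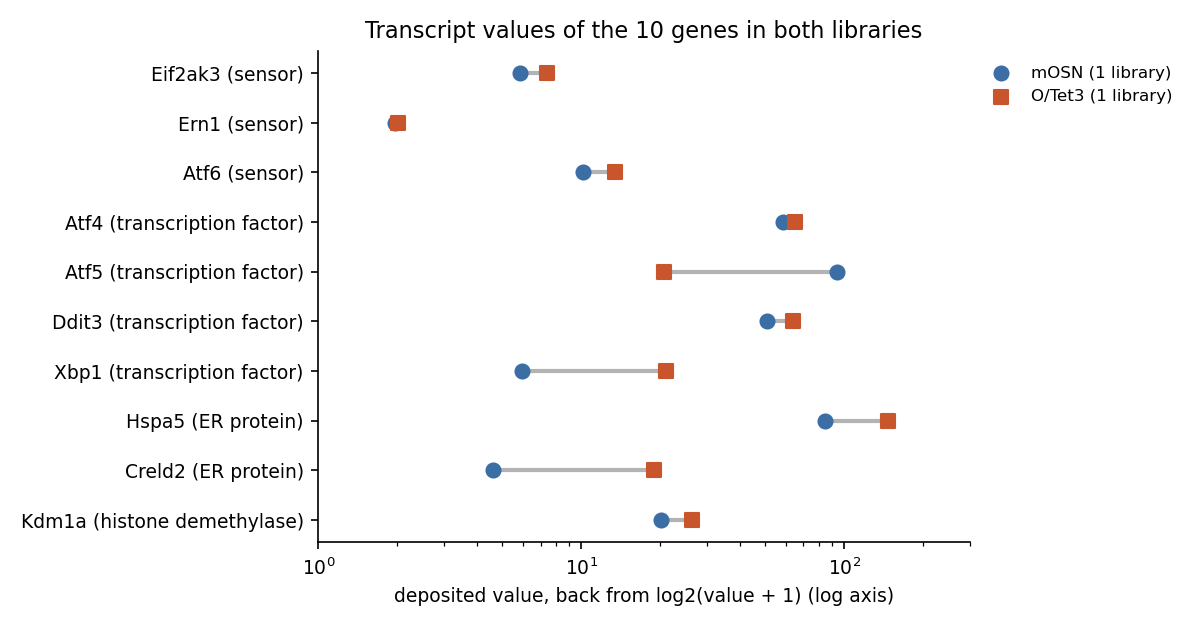
Values of the 10 genes (horizontal log axis, deposited values taken back from the log2 scale) in the mOSN library (circles) and the O/Tet3 library (squares), 1 library each, with a line joining both values of a gene. Atf5 lies at 93.7 in mOSN and 20.6 in O/Tet3, Xbp1 and Creld2 lie farther right in O/Tet3, and the pairs of Ern1 and Atf4 nearly coincide.

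The sensors were at low to moderate levels that changed little between the libraries. Eif2ak3, the kinase that detects unfolded receptor protein, had 5.86 in mOSN against 7.44 in O/Tet3, 1.27-fold apart. Ern1, the kinase and endonuclease that splices Xbp1, was at 1.96 and 2.02, the lowest level of the 10 genes in either library. Atf6, a membrane-bound factor released by proteolysis, was at 10.1 and 13.4. The differences of all 3 sensors were small beside the 2-fold bound, and after centring their log2 ratios were 0.09, −0.18 and 0.16.

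Among the transcription factors, Atf5 stood apart from its relatives in the PERK arm. Atf5, a leucine zipper factor of the ATF and CREB family, had a value of 93.7 in mOSN and of 20.6 in O/Tet3, a 4.56-fold lower level (log2 ratio −2.13, −2.34 after centring). In mOSN it held the highest level of the 10 genes and rank 177 of all rows, and in O/Tet3 it was at place 6 of the 10 and rank 1752 overall. Of the compared rows, 2.51% had a smaller log2 ratio. Atf4, the factor through which the PERK arm acts in most cells, was at 58.4 and 65.3, and its target Ddit3, a factor of prolonged stress, at 50.7 and 63.7. Atf4 and Ddit3 were thus at similar and high levels in both libraries, at 1.12-fold and 1.26-fold higher values in O/Tet3.

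Ratios of genes within a library do not depend on how the libraries were scaled. There was 1.60 times as much Atf5 as Atf4 in mOSN and 0.315 times as much in O/Tet3, a 5.09-fold difference between the libraries. Against Ddit3 the ratio went from 1.85 to 0.323, and against Eif2ak3 from 16.0 to 2.77. Against Adcy3, the cyclase that depends on Atf5 and carries the odorant signal, the ratio was 0.812 in mOSN and 0.692 in O/Tet3, only 1.17-fold apart. Against Omp, the marker of mature neurons, it was 0.315 and 0.148, or 2.13-fold apart. Atf5 thus differed between the libraries together with Adcy3 and more than Omp, while Atf4, Ddit3 and Eif2ak3 did not follow it.

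The Atf5 ratio lay within the range of mature neuron markers. The 12 mature markers had a median log2 ratio of −2.01, from −3.13 for Gng13 to −0.22 for Slc17a6, and 5 of the 12 had a lower ratio than Atf5 and 7 a higher one. They summed to 3304 in mOSN against 782 in O/Tet3. How far the lower mature marker levels take part in the Atf5 difference was not tested. Among other cells' markers, 4 of 13 compared immature neuron markers were higher and 3 lower (30.8% and 23.1%, beside 16.5% and 12% of all compared rows). Their summed values were 301 and 247, of which Stmn4 made up 86.4 and 23.3 and Ncam1 82.7 and 51.7. The 5 rows closest to Atf5 by distance of the log2 values over the 2 libraries, among 20441 ranked, were Hint1 at 101 and 21.9, Impdh1 at 99.3 and 23.5, Stmn4 at 86.4 and 23.3, Pcdhb1 at 99.3 and 23.8, and Exoc6b at 108 and 22.3.

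**Figure D2:**
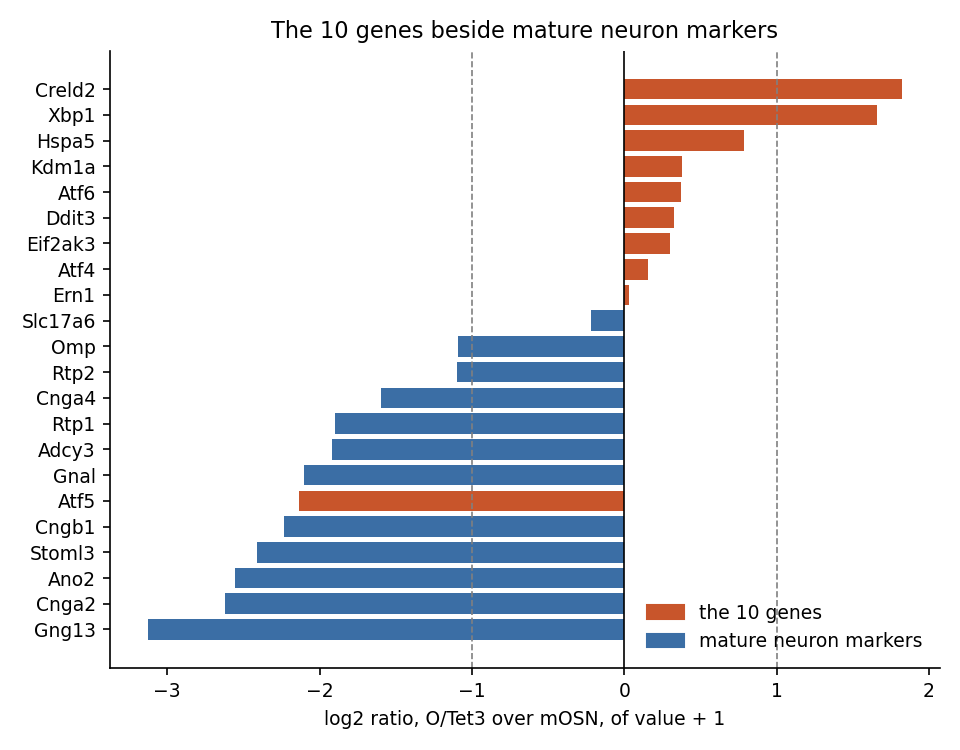
Log2 ratios of value + 1 (O/Tet3 over mOSN) for the 10 genes and for 12 mature neuron markers, sorted, as bars from 0, with dashed lines at the 2-fold bounds. Atf5, at −2.13, lies among the mature markers, whose ratios run from −3.13 to −0.22, and the other 9 genes lie above 0.

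RefSeq places other genes over the locus of Atf5, and no label states whether reads were counted by strand. Nup62 was at 3.02 and 7.32, and Il4i1 at 2.65 and 0.542, both far below Atf5 in mOSN. At the Ddit3 locus, Mars was at 14.4 and 7.87 and Mbd6 at 2.85 and 1.41. Each of these overlapping genes was below the member whose locus it shares, so the member's value was the larger in both libraries.

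Xbp1, the factor made active by IRE1 alpha splicing, differed in the opposite direction from Atf5. Its value of 5.95 in mOSN stood against 20.9 in O/Tet3, a 3.52-fold higher level (log2 ratio 1.66, 1.45 after centring). Of the compared rows, 4.98% had a larger ratio. In O/Tet3 the Xbp1 and Atf5 values nearly coincided, at 20.9 and 20.6, whereas in mOSN Atf5 was far higher. Relative to Ern1, whose product splices it, Xbp1 went from 3.04 to 10.4, and relative to Atf4 from 0.102 to 0.321. The values sum all transcript forms of the gene, so the spliced share of Xbp1 is not known.

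**Figure D3:**
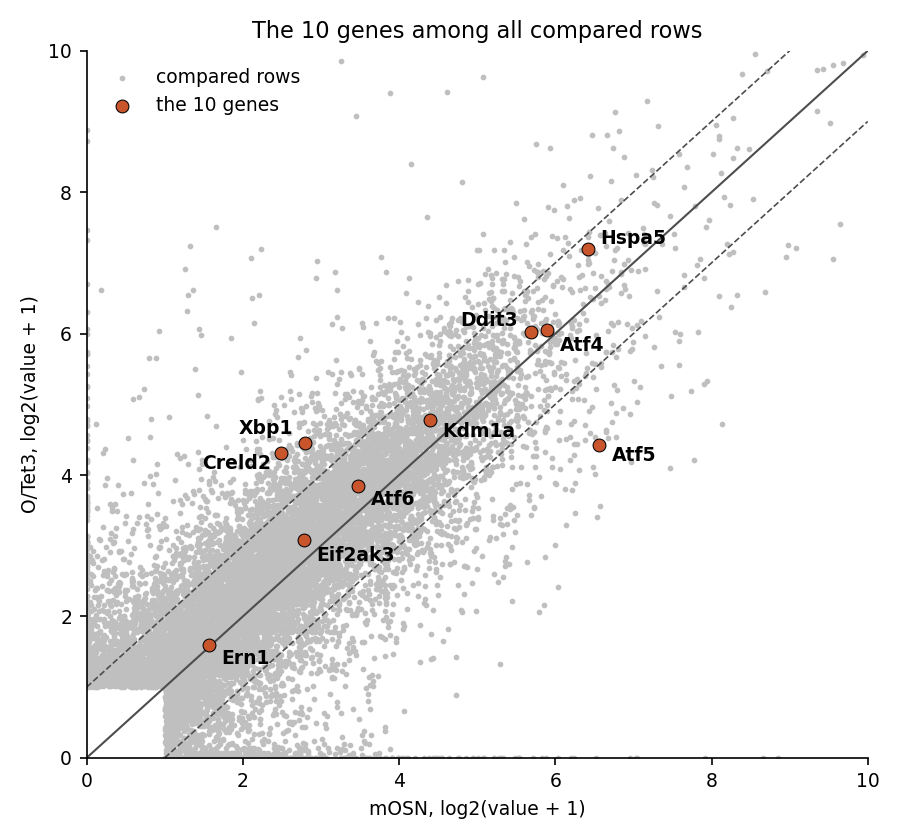
Log2(value + 1) of every compared row in mOSN (horizontal) and O/Tet3 (vertical), with the 10 genes labelled, the line of equal values (solid) and the 2-fold bounds (dashed); 30 compared rows lie beyond the axes. Atf5 lies below the lower bound, Xbp1 and Creld2 above the upper bound, and the other 7 genes between the bounds.

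The ER proteins were both at higher values in O/Tet3, by unequal amounts. Hspa5, the main ER chaperone of the Hsp70 family, had a value of 84.3 in mOSN and of 146 in O/Tet3, which is 1.74-fold and within the 2-fold bound (log2 ratio 0.79, 0.58 after centring). At a 1.5-fold bound, which 32.3% of rows passed as higher and 19.6% as lower, Hspa5 counted as higher too. Of the compared rows, 23.4% had a larger ratio. In O/Tet3 Hspa5 had the highest level of the 10 genes, at rank 132 of all rows. Creld2, an ER protein induced by unfolded protein stress, was at 4.63 and 18.9, 4.09-fold higher (log2 ratio 1.82, 1.62 after centring), and 3.83% of compared rows had a larger ratio. Relative to Creld2, Hspa5 went from 18.2 to 7.73, while Creld2 relative to Xbp1 stayed at 0.778 and 0.904.

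Hspa5 and Creld2 also share a promoter sequence that none of the other members' windows holds. The ER stress element, which reads CCAAT, then any 9 bases (N), then CCACG, and to which ATF6 binds together with the factor NF-Y, was searched on both strands of RefSeq promoter windows (build GRCm38.p6, 250 bases before to 50 after a start). Windows were at hand for 9 of the 10 genes, without Atf6. Of all 32851 windows, 0.119% held the element, and of the 10 windows of the members, 2 did. The unfolded protein response element TGACGTGG was in 0.676% of all windows and in 0 of the 10, and the C/EBP-ATF element TGATGNAAN in 3.95% and in that of Kdm1a alone. A match is a description of the letters and no evidence of binding. Both the elements and the genes were picked by their known roles, so the shares are no test of enrichment. Both promoters are shown whole with the element in capitals, which in Creld2 reads on the opposite strand from the gene, first Hspa5 at chr2:34771840-34772139 (plus strand) and then Creld2 at chr15:88819396-88819695 (plus strand).
Hspa5: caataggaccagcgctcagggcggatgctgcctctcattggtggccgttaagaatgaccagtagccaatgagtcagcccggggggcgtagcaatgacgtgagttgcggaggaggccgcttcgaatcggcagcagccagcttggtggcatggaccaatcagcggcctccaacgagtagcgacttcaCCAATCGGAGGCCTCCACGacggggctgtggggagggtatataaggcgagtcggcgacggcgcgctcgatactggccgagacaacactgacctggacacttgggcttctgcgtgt
Creld2: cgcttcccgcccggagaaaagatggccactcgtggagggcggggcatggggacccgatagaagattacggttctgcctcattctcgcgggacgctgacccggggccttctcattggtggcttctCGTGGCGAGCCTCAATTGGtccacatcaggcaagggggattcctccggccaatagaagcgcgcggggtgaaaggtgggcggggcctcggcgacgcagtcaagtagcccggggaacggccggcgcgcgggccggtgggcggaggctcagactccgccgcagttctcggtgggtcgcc

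The element lies 65 to 47 bases before the start of Hspa5 and 126 to 108 before that of Creld2. Among genes of the pathway lists it was also in the windows of Adcy3, Calr, Canx, Derl3, Dnajc3, Hsp90b1, Pdia6 and Syvn1. The sites of Canx, Pdia6, Dnajc3 and Adcy3 are shown, picked after their values were seen as examples of both directions. The ends that define the element are in capitals, written along the element's own strand. The windows are chr11:50325624-50325923 (minus strand) for Canx, chr12:17266339-17266638 for Pdia6, chr14:118937682-118937981 for Dnajc3 and chr12:4133147-4133446 for Adcy3, the last 3 on the plus strand.
Hspa5: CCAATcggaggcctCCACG
Creld2: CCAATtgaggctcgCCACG
Canx: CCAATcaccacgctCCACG
Pdia6: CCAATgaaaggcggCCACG
Dnajc3: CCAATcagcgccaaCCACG
Adcy3: CCAATtcggcgtttCCACG

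Genes with the element did not move as a block. Canx, encoding the lectin chaperone calnexin, was at 71.2 and 198, and the disulfide isomerase gene Pdia6 at 10.1 and 31.6. Dnajc3, an ER co-chaperone that inhibits PERK, was at 8.44 and 14.5. Adcy3 was lower, at 115 and 29.7, and Calr and Hsp90b1, encoding the chaperones calreticulin and GRP94, were at 184 and 147 and at 165 and 153. Syvn1, encoding a ubiquitin ligase of the ER, was at 0.601 and 1.66, and Derl3 at 0.159, with 0 listed for O/Tet3. Of 16 compared genes with the element among all windows, 4 were higher, 2 lower and 10 within the 2-fold bound. Of all compared rows, 16.5% were higher and 12% lower. The median log2 ratio of the 16 was 0.73, beside 0.21 over all compared rows. The members Hspa5 and Creld2 are among these 16.

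Kdm1a, the demethylase that removes histone methylation and must be shut down for a stable choice, had 20.1 in mOSN against 26.4 in O/Tet3, 1.32-fold apart (log2 ratio 0.38). Its ratio became 0.17 after centring and −0.062 when scaled to the sum without dominant rows. Relative to Omp, Kdm1a went from 0.0674 to 0.190, a 2.81-fold difference. The larger part of that lay in Omp itself, which was at 298 and 139, 2.14-fold lower in O/Tet3. Its paralog Kdm1b, which also demethylates histone H3 and is known from oocytes, was at 0.294 and 8.54, 29.0-fold higher in O/Tet3 (log2 ratio 2.88). Kdm1a was thus 68.2 times as high as Kdm1b in mOSN and 3.09 times as high in O/Tet3. The 29.0-fold and the 68.2 rest on a Kdm1b value in mOSN that lies below the floor of 1. Of 15 compared genes in the list named for the KDM1A and CoREST complex, which also holds the paralog Kdm1b, 3 were higher and 0 lower. The list's median ratio was 0.38 on the log2 scale and −0.062 when scaled to the sum without dominant rows. The 20.0% higher lies near the 16.5% of all compared rows. Beside Kdm1b these were Ctbp2, a corepressor, at 3.78 and 14.7, and Zfp217, a zinc finger gene, at 1.35 and 5.35. The deacetylase gene Hdac2 was at 14.7 and 28.5.

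In the wider PERK and integrated stress response machinery, genes of the list went both ways. Ppp1r15b, encoding the constitutive regulator of the eIF2 phosphatase, was at 38.9 and 8.82, 4.41-fold lower. Ppp1r15a, encoding its stress-induced counterpart GADD34, was at 25.6 and 7.61. Eif2ak2, another eIF2 kinase that responds to double-stranded RNA, was at 1.29 and 6.30, and Eif2s2, encoding the beta subunit of eIF2, at 14.6 and 33.9. The other higher genes were Eif2b2, at 3.44 and 8.85, and Eif2b5, at 3.78 and 8.67, which encode subunits of the exchange factor that phosphorylated eIF2 blocks. Of the 19 listed genes, all compared, 4 were higher and 3 lower (21.1% and 15.8%, beside 16.5% and 12% of all compared rows, median log2 ratio 0.57). The 3 lower genes were Atf5, Ppp1r15a and Ppp1r15b, and after centring 1 of the 19 was higher, beside 11.3% of all compared rows.

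Genes that ATF4 and CHOP are known to induce went both ways. Of 20 compared, 6 were higher and 4 lower (median log2 ratio 0.25, and −0.069 when scaled to the upper quartile). Mthfd2, a mitochondrial folate enzyme, was at 2.11 and 14.2, and Psph, the last enzyme of serine synthesis, at 2.19 and 9.02. Gpt2, an alanine aminotransferase, was lower at 20.0 and 6.41, as was Ppp1r15a, which this list shares with the previous one. No common direction of this list accompanied the near-equal Atf4 and Ddit3 values.

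Genes of ER entry and folding were counted beside the 16.5% higher and 12% lower of all compared rows. Of 39 compared ER chaperones and disulfide enzymes, 9 were higher and 1 lower (23.1% and 2.56%, median log2 ratio 0.65). Among them the isomerase reductase gene Dnajc10 was at 12.9 and 31.2, and Uggt2, of the glucosyltransferase family that tests glycoprotein folding, at 5.04 and 13.9. The number of higher genes here rests on the scaling: it was 5 after centring, 4 when scaled to the upper quartile and 3 when scaled to the sum without dominant rows, though the list median was above 0 in each. The share of all compared rows counted as higher fell too, to 11.3%, 11.7% and 8.59%. Of 33 compared genes of the IRE1 and XBP1 arm, 6 were higher and 1 lower (18.2% and 3.03%, median 0.52), the share of higher genes being near that of all rows. These counts became 4 and 2 after centring or when scaled to the upper quartile, and 3 and 2 when scaled to the sum. The shares of all compared rows were then 11.3% higher and 15.1% lower, 11.7% and 14.6%, and 8.59% and 17.6%. Sec11c, a signal peptidase subunit, was at 11.5 and 37.1, Srp19, of the signal recognition particle, at 14.4 and 38.2, and the signal peptidase subunit Spcs1 at 29.8 and 67.5.

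The ATF6 arm had 3 higher and 0 lower of 15 compared genes (median 0.37), or 20.0% higher beside 16.5% of all compared rows. Beside Creld2, the disulfide isomerase gene Pdia4 was at 11.5 and 26.9 and Sdf2l1, an ER chaperone partner, at 2.19 and 6.04. Hyou1, an exchange factor of BiP, was at 15.2 and 27.3, and the co-chaperone gene Dnajb11 at 31.6 and 56.6, both within the bound. After centring 1 of the 15 was higher, beside 11.3% of all compared rows. Degradation of ER proteins differed less. Of 30 compared genes, 1 was higher and 2 lower (3.33% and 6.67%, beside 16.5% and 12% of all compared rows). The ubiquitin-conjugating enzyme gene Ube2j1 was higher, at 7.87 and 16.9. Herpud2, at 5.97 and 2.39, and Bag6, at 29.9 and 14.1, were lower. The ER selenoprotein gene Selk, within the bound, was at 42.4 and 80.6. The median of this list was 0.07, and it was negative under all scaling alternatives.

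**Figure D4:**
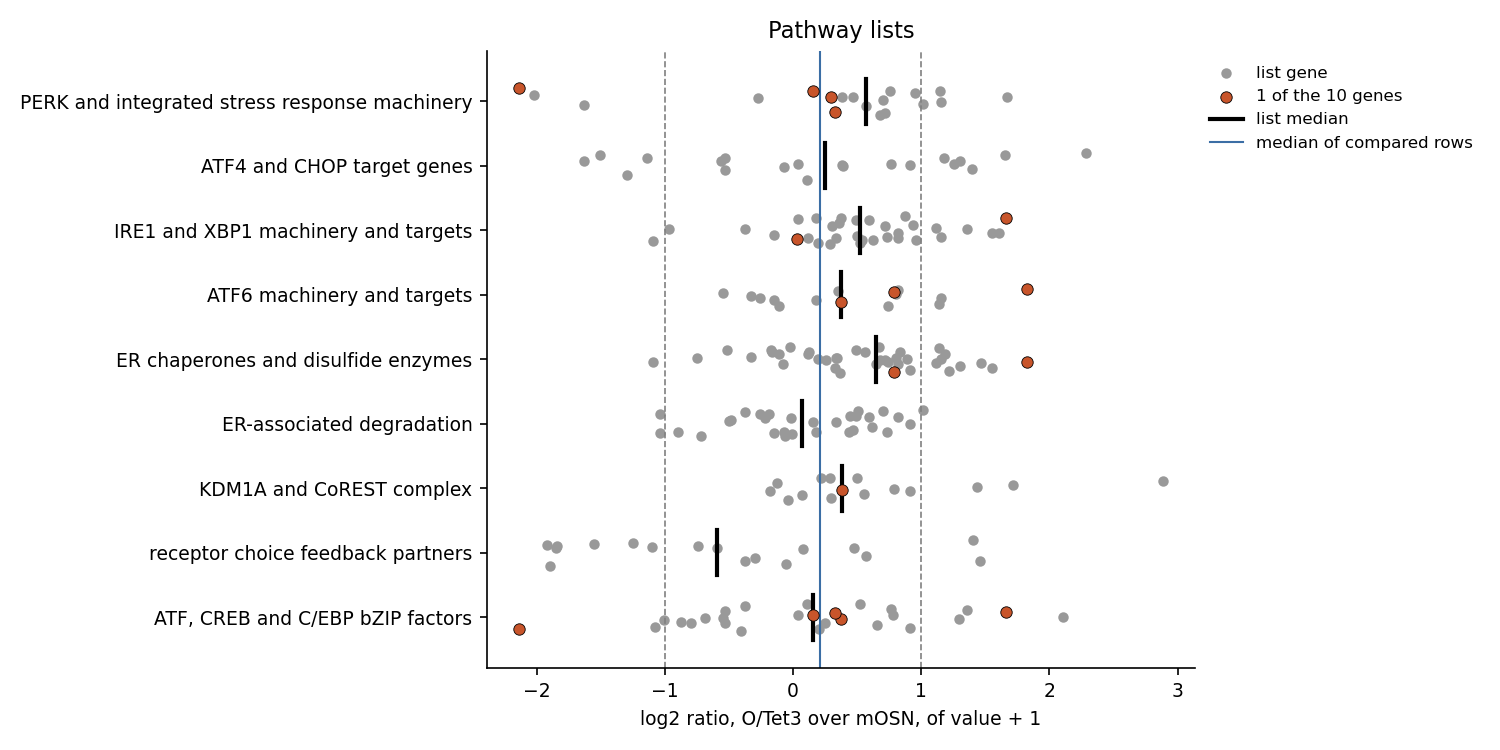
Log2 ratios of value + 1 (O/Tet3 over mOSN) of the compared genes of 9 pathway lists, which share some genes, with each list's median (black), the median of all compared rows (blue, 0.21) and the 2-fold bounds (dashed). The 10 genes are drawn in colour; the medians run from −0.59 for receptor choice feedback partners to 0.65 for ER chaperones and disulfide enzymes.

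Partners of the feedback outside the unfolded protein response included many lower genes. Of 17 compared, 7 were lower and 2 higher (41.2% and 11.8%, beside 12% and 16.5% of all compared rows, median log2 ratio −0.59). The higher genes were Suv39h1, at 1.25 and 4.97, and Suv39h2, at 1.30 and 5.34. Of the lower genes, Adcy3, Rtp1 and Rtp2 are also in the list of mature neuron markers. Rtp1, encoding a transport protein that brings receptors out of the ER, was at 108 and 28.3, and Adcy3, downstream of Atf5, at 115 and 29.7. The receptor enhancer factors Lhx2, at 35.9 and 9.27, and Ebf3, at 60.9 and 16.2, were 3.87-fold and 3.75-fold lower, beside 4.56-fold for Atf5.

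Within the list of ATF, CREB, C/EBP and related leucine zipper factors, Atf5 had the lowest log2 ratio of 27 compared genes. Of these, 4 were higher and 3 lower (14.8% and 11.1%, beside 16.5% and 12% of all compared rows). Atf7 was lower at 20.5 and 9.20. Creb3l2, an ER-anchored relative of ATF6, was at 0.941 and 7.37, 7.84-fold higher, and Creb3l4, of the same subfamily, at 0.167 and 1.87. Cebpa was at 0.827 and 3.67. The ER-anchored factors thus did not share a direction, since Creb3l1 was lower, at 2.79 and 0.886, and Creb3, at 22.5 and 43.3, was within the 2-fold bound, as was Atf6.

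Secretory cells with a large ER also express Xbp1 and ER chaperones, so markers of the other cells of the epithelium were set beside these genes. Of 14 sustentacular and gland markers, the sum was 28.3 in mOSN against 9.54 in O/Tet3, and 4 of the 14 were listed at 0 in O/Tet3. Ugt2a1 alone made up 15.6 and 2.53 of these sums, while Cyp2g1 was at 2.89 and 1.76 and Cbr2 at 3.67 and 3.65. Of 6 compared, 3 were lower and 0 higher. For 18 glia, blood, immune and vessel markers the sums were 71.4 and 44.1, with 1 lower and 0 higher of 7 compared, and the plasma cell gene Igj was at 0.169 and 0.0597. The sums of 11 progenitor and basal markers were 20.1 and 35.8, of which Pcna alone made up 18.4 and 33.1. Immature neuron markers went both ways: Gap43 was at 6.41 and 34.8, Stmn1 at 6.72 and 34.7, and Sox11 at 0.383 and 6.05, while Stmn4 was at 86.4 and 23.3 and Dpysl5 at 7.98 and 1.46. The part of any of these cells in the Xbp1, Creld2 and Hspa5 values was not tested.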

How the data were processed

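The deposited table gives a log2 value per gene for each of 2 RNA libraries and their difference, made by the authors. Per the submitters' processing notes, the genome build was mm9, and Cuffdiff, Bowtie and Bowtie2 are listed with neither roles nor versions. Annotation and strand setting are not given in the sources used here. The deposited log2 values are log2(value + 1): taken back, 99.4% of mOSN and 99.3% of O/Tet3 values above 0.01 had at most 6 significant digits, as Cuffdiff prints FPKM, but the file does not name the unit. The deposited log2 ratio equals the column difference within 8.0e-14. Each column was matched to a library by its abbreviated genotype.

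Python 3.11.15 with pandas 2.3.3 was used to take the values back, apply the floor of 1 and the 2-fold bound, and describe 9 pathway lists and 5 marker lists (274 symbols, all with a row). The calling code was checked on mOSN values multiplied by fixed factors without noise. That checks the arithmetic and says nothing about the error between libraries. The 10 genes, the lists and the rule for named genes were chosen with earlier results of these data known. Named were the 10 genes, Tet3 and Omp, up to 4 other compared genes per pathway list with the ratio largest in size, and the 5 rows nearest to Atf5 apart from receptors, small RNAs and clone-like symbols. Other genes (Eif2b2, Eif2b5, Creb3, Creb3l1, Suv39h1, Suv39h2 and those of marker lists, overlapping loci or promoter matches) were named after their values were seen. With 1 library per group no test was possible. Alternatives were pseudocounts of 0.1 and none, no floor and a floor of 5, folds of 1.5 and 3, centring on the median, and scaling to the upper quartile or to the sum without rows of at least 1% of it. Promoters and gene overlaps came from RefSeq (GRCm38.p6); its gene coordinates were not joined to the mm9 values.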

Additional observations from a re-analysis of the deposited data

How the results depend on the processing

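Over the 9 alternatives, the counts of 2 higher and 1 lower gene among the 10 were as reported, except that at 1.5-fold 3 were higher, Hspa5 being the third. Their median log2 ratio of 0.35 became 0.37 with a pseudocount of 0.1, 0.37 with no pseudocount, 0.37 with a floor of 5, 0.11 scaled to the upper quartile, 0.14 centred and −0.080 scaled to the sum without dominant rows. Centring moved every ratio by the same amount, while the other scalings moved low rows less because of the pseudocount: the median of the rows that reached 1 in mOSN as well as O/Tet3 was 0.21 as deposited and −0.16 scaled to that sum. Over the alternatives the log2 ratio ran from −2.57 to −2.13 for Atf5, 1.22 to 1.81 for Xbp1, 1.39 to 2.03 for Creld2 and 0.33 to 0.80 for Hspa5, while those of Eif2ak3, Ern1, Atf6, Atf4, Ddit3 and Kdm1a went below 0 under at least 1 scaling.

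All higher and lower rows numbered 2135 and 1552 (57.9% of called rows higher), 1464 and 1953 centred (42.8%), 1072 and 2198 scaled to the sum (32.8%), and 1487 and 1856 scaled to the upper quartile (44.5%). They were 1401 and 793 with a floor of 5, 4179 and 2533 at 1.5-fold, and 745 and 673 at 3-fold, where a stricter bound counts fewer rows by construction.

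For the pathway lists a further alternative left the 10 genes out of the lists. Counting it as well, 54 of 180 list counts moved by over 1.5 times, and 11 of 90 list medians changed sign. The ER-associated degradation median was −0.0083 with no floor, −0.039 with a floor of 5, −0.13 centred, −0.31 scaled to the sum and −0.14 scaled to the upper quartile. For the same scalings the bZIP factor median was −0.048, −0.21 and −0.069. The ATF4 and CHOP target median was −0.20 scaled to the sum and −0.069 scaled to the upper quartile, and that of the KDM1A and CoREST complex −0.062 scaled to the sum. Apart from the scalings, the cause was not tested. Low rows put the reads per unit of value lower in O/Tet3, by an estimated 1.88-fold, which would limit low genes there most. No paired analysis was possible because there is 1 library of each kind.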
